A study of Mus musculus with 12 samples.

Results

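The mitotic cell cycle genes are 36 genes whose products drive entry into mitosis, build and police the spindle, and split the cell. Each was represented by the probe set that the Mouse430_2 array annotation gives to its symbol, and where a gene had several, by the one with the highest mean signal over 12 arrays, provided that mean was at least 100. A total of 35 of the 36 genes had such a probe set, among 10059 genes and 18903 probe sets that passed the same filter. Ccnb1, cyclin B1, had no probe set assigned to it alone in the annotation used and was not analysed here.

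The arrays hold RNA of 6 lines of primary mouse embryonic fibroblasts from e14.5 embryos, each cultured for 6 h at 0.1% O2 (hypoxia) or 21% O2 (normoxia), with 1 array per culture and thus 3 arrays in each of 4 groups. All 6 lines, control lines included, were infected at passage 3 with an adenovirus that expresses Cre recombinase and were then expanded at least 100-fold. The triCH1 lines lacked the CH1 domain in 3 of the 4 alleles of Crebbp (CBP) and Ep300 (p300), which encode transcriptional coactivators and histone acetyltransferases. The fourth allele was floxed, being that of Crebbp in triCH1flox1, and that of Ep300 in triCH1flox2_1 as well as triCH1flox2_2. The control lines carried 1 floxed allele, Crebbp in line flox1 and Ep300 in lines flox2_1 and flox2_2. The series title describes the triCH1 cells as left with CBP and p300 that lack CH1. With 1 line each for the flox1 genotypes, the genotype of flox1 or triCH1flox1 and the line itself cannot be told apart. Below, signals are listed in the order triCH1flox1, triCH1flox2_1, triCH1flox2_2 for the triCH1 lines and flox1, flox2_1, flox2_2 for the control lines.

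Mitosis is started by the kinase CDK1 bound to A-type and B-type cyclins, supported by the Aurora and Polo kinases. The spindle assembly checkpoint holds cells in metaphase until kinetochores are attached, after which the anaphase-promoting complex (APC/C) with CDC20 marks cyclins and securin for destruction. The transcripts of these genes accumulate in G2 and mitosis and are low in resting cells, so in a bulk culture their level also depends on how many cells are cycling. In such RNA, fewer cells in G2 or mitosis and less RNA of a gene per cell cannot be told apart. Many of the promoters are repressed in resting cells through a CHR element bound by the MuvB core of the DREAM complex, and activated through CCAAT boxes bound by NF-Y.

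Signals are the authors' linear intensities, scaled to a common target on each array, and the 3 arrays of each group bound their precision. Array medians lay between 57.2 and 76.1, and the authors' scale factors between 2.57 and 4.28. The ratio of 3′ to 5′ control probe sets lay between 1.10 and 1.17 for Actb and between 0.74 and 0.81 for Gapdh. For the longer Tfrc transcript it lay between 1.88 in hypoxic flox2_2 and 3.20 in hypoxic flox2_1. Crebbp gave 698.7 to 1852 and Ep300 206.7 to 836.4 over the 12 arrays, with the 4 arrays of flox1 and triCH1flox1 lowest for Crebbp, and such signals give no readout of the CH1 coding sequence. The fibroblast markers were present, with 15 of 15 measured and a summed signal of 164946 to 216446 in the hypoxic triCH1 lines, 183759 to 199941 in the normoxic triCH1 lines, 189349 to 232901 in the hypoxic control lines and 178231 to 223132 in the normoxic control lines. Endothelial markers passed the filter for 0 of 6 genes, with sums of 134.8 to 234.6 and 143.3 to 197.1 in the hypoxic and normoxic triCH1 lines, against 101.2 to 171.5 and 128.4 to 223.6 in the hypoxic and normoxic control lines. Skeletal muscle markers passed it for 2 of 7, and macrophage and leukocyte markers for 2 of the 6 with a probe set.

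The mitotic transcripts differed chiefly from line to line. Lines triCH1flox2_1 and triCH1flox2_2 had the highest levels, the 3 control lines the lowest on the whole, and triCH1flox1 lay between them or with the controls. The log2 level of each gene, averaged over both treatments of a line and set against that gene's mean over 6 lines, had a median over the 35 members of −0.12 in triCH1flox1, 0.37 in triCH1flox2_1 and 0.42 in triCH1flox2_2, against −0.40 in flox1, −0.25 in flox2_1 and −0.13 in flox2_2. Over all 18903 probe sets the same medians lay between −0.02 and 0.04. The summed member signal was 71885, 92357 and 101441 in the hypoxic and 72103, 96636 and 99048 in the normoxic triCH1 lines, against 60873, 62123 and 69783 in the hypoxic and 61470, 62811 and 69387 in the normoxic control lines. Each triCH1 array thus had a higher sum than each control array. The order of the 6 lines by this sum was the same in hypoxia as in normoxia.

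**Figure D1:**
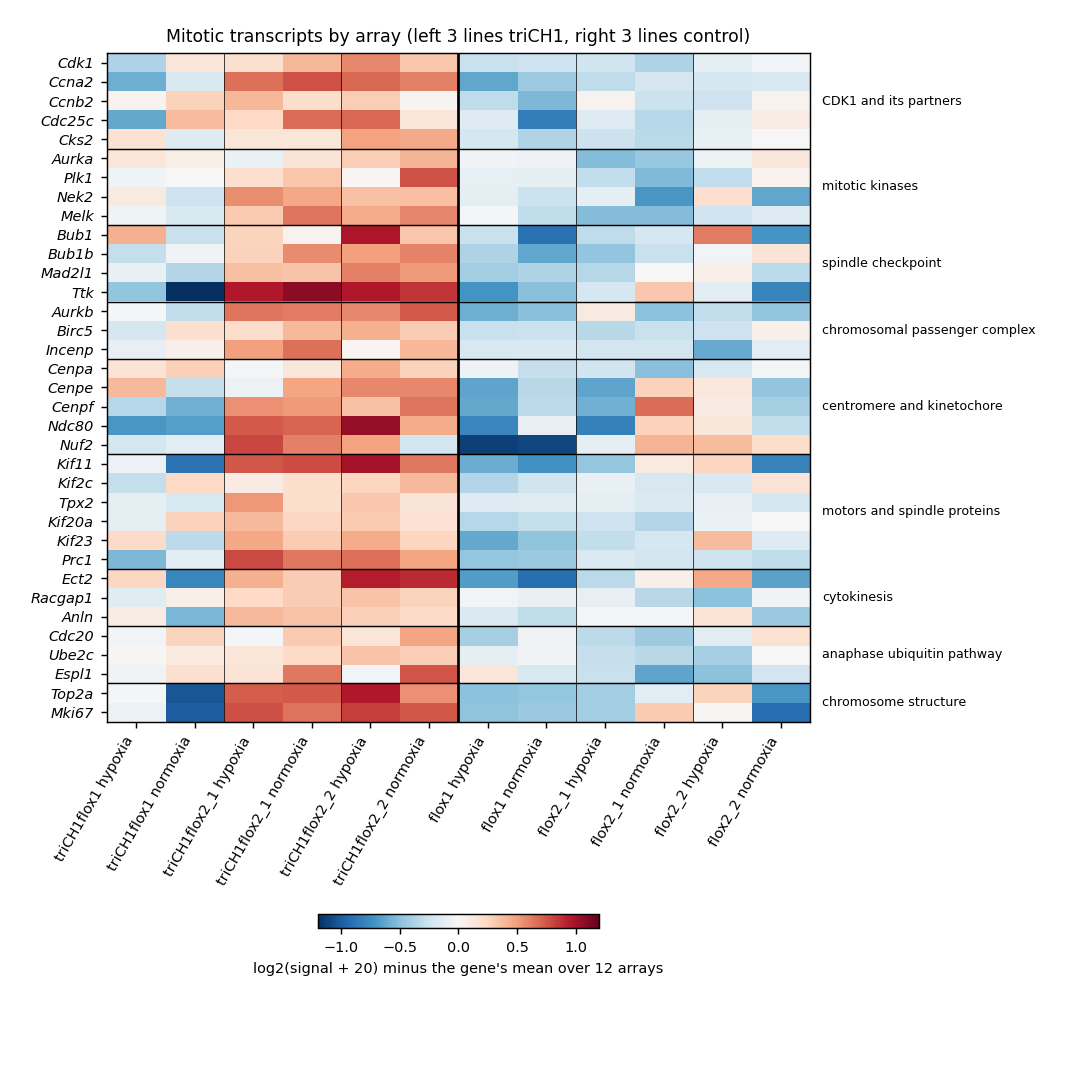
Log2(signal + 20) of 35 mitotic transcripts on 12 arrays, each relative to that gene's mean over the arrays, with genes grouped by role, the 3 triCH1 lines at the left and the 3 control lines at the right. The columns of triCH1flox2_1 and triCH1flox2_2 are above the gene mean in most rows, while the columns of triCH1flox1 and the control lines are mixed or below it.

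The differences among the 6 lines were tested with limma's F test, with treatment as a covariate, so that the level of a line is compared with the spread between its hypoxic and normoxic cultures. A gene is called below where its Benjamini-Hochberg adjusted p, over all 18903 probe sets, is under 0.05. Of the 35 members, 25 were called, against 15.8% of all tested probe sets. The gap between the highest and lowest line had a median of 0.95 on the log2 scale over the members and 0.61 over all probe sets. The highest line was triCH1flox2_2 for 21 members and triCH1flox2_1 for 14. Flox1 was the lowest line for 17 members, flox2_1 for 11, triCH1flox1 for 5 and flox2_2 for 2. Both triCH1flox2 lines lay above the 4 other lines for 32 members, against 19% of all probe sets, a pattern picked out after the values were seen. The 3 members without it were Aurka, Cenpa and Nuf2. When the F test was limited to differences between lines of the same type, 8 members were called (Ccna2, Ttk, Nuf2, Prc1, Top2a, Bub1b, Mad2l1 and Mki67), against 9.93% of all probe sets. The count of 25 fell to 8 without line triCH1flox2_2 (10.8% of all probe sets), to 13 without triCH1flox2_1 (7.64%) and to 15 without flox1 (9.76%), so calls over all probe sets fell as well. Without the variance trend of limma it was 8, against 10.2% of all probe sets.

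Promoter sequences are shown for Cdk1 and Top2a, which hold both CHR and CCAAT letters, and for 3 of the members with the smallest p among lines, Prc1 and Ttk with CCAAT letters alone and Nuf2 with neither. Each run is the 250 bases before the transcript start in RefSeq (build GRCm38.p6), 5′ to 3′ on the gene's strand. Capitals mark CHR letters (TTTGAA or TTCGAA) and CCAAT letters on either strand, so a match on the opposite strand reads TTCAAA or ATTGG.
Cdk1, chr10:69352913-69353162, minus strand: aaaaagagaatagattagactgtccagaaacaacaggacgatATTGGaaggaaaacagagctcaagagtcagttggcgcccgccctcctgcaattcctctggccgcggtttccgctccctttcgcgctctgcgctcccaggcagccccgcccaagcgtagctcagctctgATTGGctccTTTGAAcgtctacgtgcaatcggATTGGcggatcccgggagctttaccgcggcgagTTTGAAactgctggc
Top2a, chr11:99024190-99024439, minus strand: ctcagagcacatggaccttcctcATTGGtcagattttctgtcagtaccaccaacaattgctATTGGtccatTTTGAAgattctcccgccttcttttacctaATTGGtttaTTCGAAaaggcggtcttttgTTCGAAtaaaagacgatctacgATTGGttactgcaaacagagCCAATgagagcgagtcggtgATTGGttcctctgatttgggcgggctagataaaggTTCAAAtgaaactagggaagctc
Prc1, chr7:80294201-80294450, plus strand: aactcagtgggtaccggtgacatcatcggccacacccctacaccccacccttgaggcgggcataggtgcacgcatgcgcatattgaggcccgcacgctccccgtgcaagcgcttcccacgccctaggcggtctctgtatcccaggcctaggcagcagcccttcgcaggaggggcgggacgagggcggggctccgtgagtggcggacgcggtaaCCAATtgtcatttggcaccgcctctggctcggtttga
Ttk, chr9:83834439-83834688, plus strand: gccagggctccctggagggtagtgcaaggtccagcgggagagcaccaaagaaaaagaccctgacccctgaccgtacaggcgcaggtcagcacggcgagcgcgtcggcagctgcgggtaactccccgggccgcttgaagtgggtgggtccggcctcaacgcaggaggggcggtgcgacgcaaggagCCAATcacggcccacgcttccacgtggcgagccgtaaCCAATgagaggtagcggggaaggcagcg
Nuf2, chr1:169531465-169531714, minus strand: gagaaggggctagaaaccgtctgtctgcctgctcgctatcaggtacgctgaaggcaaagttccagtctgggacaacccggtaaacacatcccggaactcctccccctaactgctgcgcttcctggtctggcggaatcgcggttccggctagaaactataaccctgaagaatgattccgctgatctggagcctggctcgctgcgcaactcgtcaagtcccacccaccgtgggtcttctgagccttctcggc
The Cdk1 run holds 2 CHR and 3 CCAAT matches, that of Top2a 4 and 6, that of Prc1 1 CCAAT match and that of Ttk 2.

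RefSeq promoter entries matched 30 of the 36 members, Ccnb1 included, and Aurkb, Ccna2, Cdc25c, Incenp, Kif20a and Tpx2 had none in the table used. CHR letters were found in 11 of the 30 (36.7%), against 17.4% of 27025 mouse promoters of the same length. CCAAT was found in 23 (76.7%), against 34.5%, and both in 10 (33.3%), against 6.2%. E2F letters, searched on either strand as TTCCCGC and in the other forms TTGGCGC and also TTCGCGC and lastly TTGCCGC, were found in 3 (10.0%), against 8.0%; in Ccnb1 the E2F match overlaps a CCAAT match. The gap between the highest and lowest line had a median of 0.85 on the log2 scale in the 11 measured members with CHR letters and 0.94 in the 18 without, and of 0.92 in the 22 with CCAAT and 0.96 in the 7 without. These are letter matches, not measured binding sites, and a run without a match says only that those letters are not in this window.

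**Figure D2:**
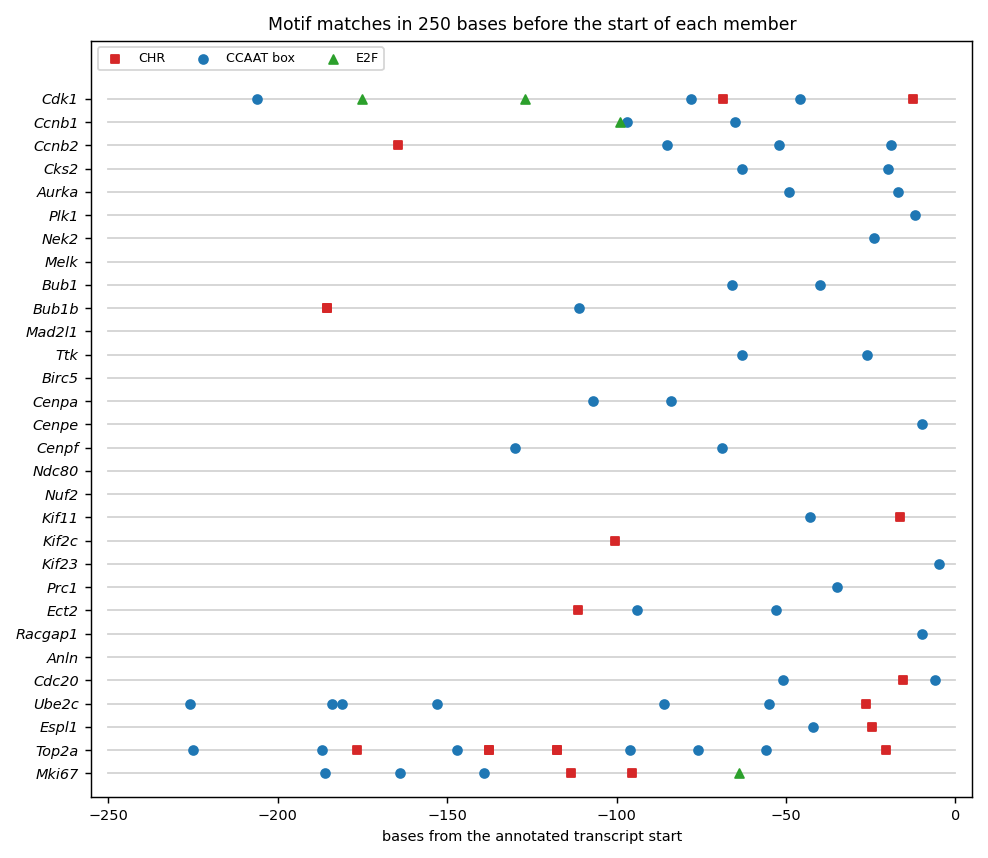
Position of CHR (squares), CCAAT (circles) and E2F (triangles) letter matches on either strand in the 250 bases before the annotated transcript start of 30 members, one line per gene, in bases from the start. CCAAT matches occur in 23 genes, CHR matches in 11 and E2F matches in 3, and 6 genes have none.

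Next, the triCH1 lines were set against the control lines at each oxygen level, the comparison that asks how loss of the CH1 domain is reflected in mitotic transcripts. The mean log2 difference was above 0 for 35 of 35 members in both, with a median of 0.45 in hypoxia (lowest 0.23, highest 0.85) and 0.48 in normoxia (lowest 0.20, highest 0.88). Over all probe sets the medians were 0.03 and 0.02. No member was called. In hypoxia 0 of 35 were called, against 0.00529% of all probe sets higher and 0.0688% lower, and in normoxia 0 of 35, against 0% higher and 0.00529% lower. At an unadjusted p under 0.05 there were 11 members in hypoxia, against 4.16% of all probe sets higher at that level, and 18 in normoxia, against 3.73%. The 3 triCH1 arrays lay above the 3 control arrays for 8 members in hypoxia, against 7.1% of all probe sets, and for 15 in normoxia, against 6.18%. These counts rest on the probe set used for each member. Of those members, Ccna2, Cdc25c, Aurkb, Incenp, Prc1 and Cdc20 had another probe set past the filter that overlapped in normoxia. In hypoxia that was so for Incenp. With the treatments averaged, the 3 triCH1 lines lay above the 3 control lines for 16 members, against 8.02%. The other 21 probe sets of the members that passed the filter, from 17 genes, gave a difference above 0 for 20 in hypoxia and 21 in normoxia.

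The count of calls depended on line triCH1flox1. Without it, 4 members were called in hypoxia (Ccna2, Ndc80, Prc1 and Top2a) and 6 in normoxia (Ccna2, Nek2, Melk, Aurkb, Prc1 and Top2a), all higher in the triCH1 lines. Calls over all probe sets increased too, to 276 in hypoxia (0.497% higher, 0.963% lower) and 245 in normoxia (0.455% higher, 0.841% lower), against 14 and 1 with all lines. Ccna2 then differed by 1.06 ± 0.17 on the log2 scale in hypoxia (SE, limma adjusted p = 0.0114) and by 0.96 ± 0.17 in normoxia (adjusted p = 0.0181). Prc1 differed by 1.02 ± 0.16 (adjusted p = 0.0105) and 0.88 ± 0.16 (adjusted p = 0.022). Leaving out any other line or single array gave 0 calls in both comparisons. The counts at an unadjusted p under 0.05 depended on single lines as well. In hypoxia the 11 members became 24 without triCH1flox1, against 15.3% of all probe sets at that level in either direction. They became 4 without triCH1flox2_1 (5.18%), 1 without triCH1flox2_2 (5.09%), 5 without flox1 (4.66%) and 6 without flox2_1 (6.31%). In normoxia the 18 became 29 without triCH1flox1 (13.1%), 8 without triCH1flox2_1 (5.35%) and 10 without triCH1flox2_2 (4.4%). There were 9 without flox1 (4.1%) and 5 without flox2_1 (6.18%). Without flox2_2 the counts were 13 in hypoxia (9.65%) and 19 in normoxia (9.18%). Omission of single arrays gave 2 to 22 members in hypoxia, against 5.18% to 12.9% of all probe sets. In normoxia it gave 8 to 27, against 4.29% to 11.6%.

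**Figure D3:**
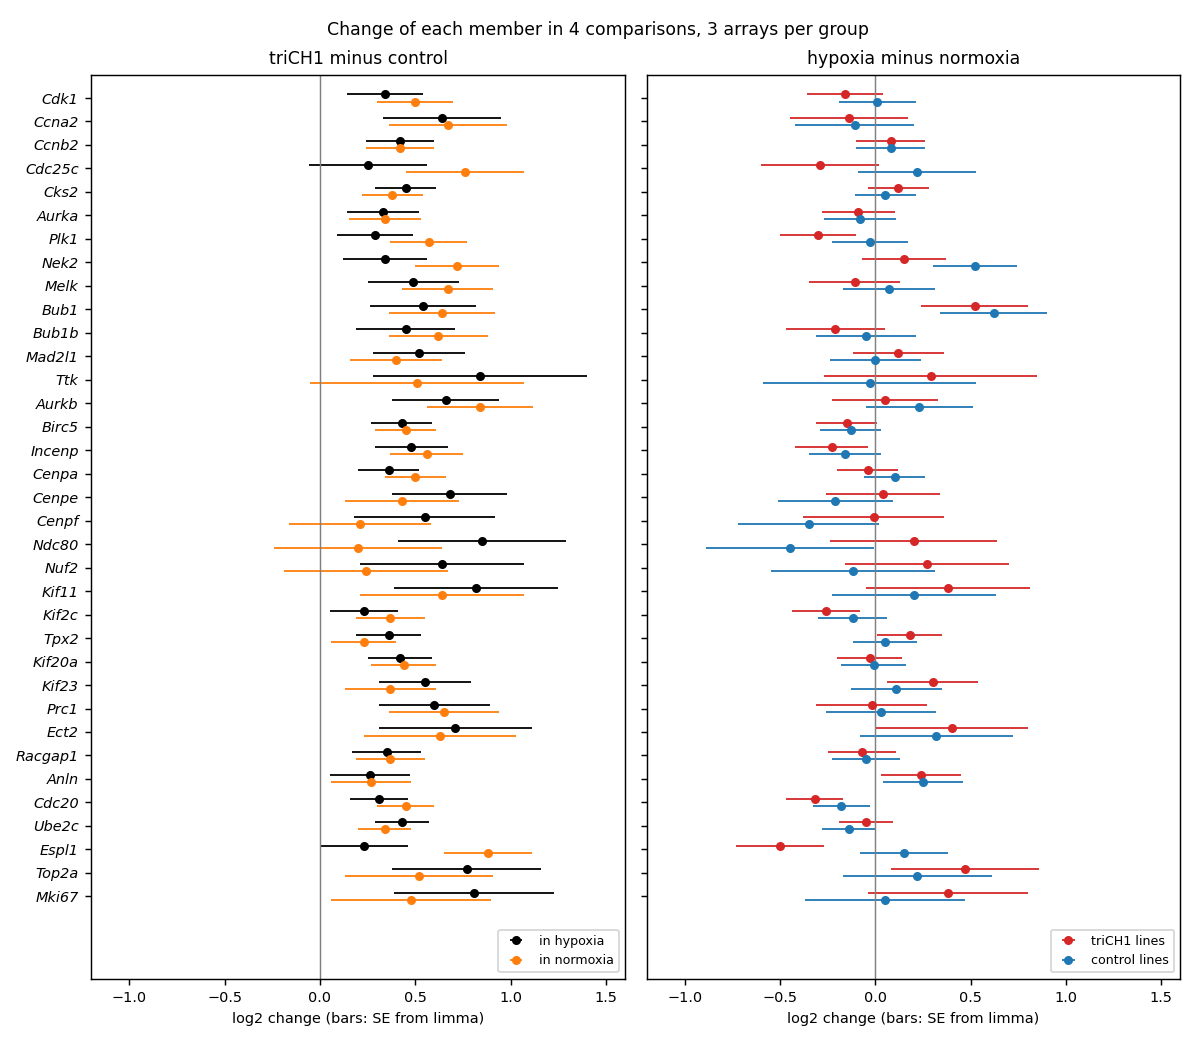
Log2 change of 35 members with SE from limma, 3 arrays per group. At the left, triCH1 minus control lies above 0 for each member in hypoxia (black) and normoxia (orange); at the right, hypoxia minus normoxia scatters around 0 in triCH1 (red) and control lines (blue).

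CDK1 and its partners were all measured apart from Ccnb1. Ccna2 (1417911_at), cyclin A2, which partners CDK2 in S phase and CDK1 in G2, had the smallest p of all members in the test among lines. Its signal was 1675, 4017 and 4089 in the hypoxic and 2228, 4293 and 3857 in the normoxic triCH1 lines, against 1628, 2046 and 2182 in the hypoxic and 1861, 2199 and 2221 in the normoxic control lines. The triCH1flox2 lines had about the same level as each other and stood clear of the rest, while triCH1flox1 overlapped the control lines in hypoxia and exceeded the highest of them by a narrow margin in normoxia. The gap between highest and lowest line was 1.24 on the log2 scale (SE of a difference between lines 0.15, adjusted p = 1.46e-04). Cks2 (1417457_at), a small CDK-binding subunit, gave 8348, 8173 and 10366 in hypoxia and 6633, 8200.1 and 10177 in normoxia in the triCH1 lines, against 6397, 6190.1 and 6966 in hypoxia and 5745, 5915 and 7372 in normoxia in the control lines. In hypoxia each triCH1 line lay above each control line, whereas in normoxia triCH1flox1 lay below flox2_2. The triCH1 minus control difference was 0.45 ± 0.16 in hypoxia (adjusted p = 0.49), and the gap among lines was 0.76 (adjusted p = 0.00527). Cdc25c (1456077_x_at), the phosphatase that activates CDK1, was the weakest member, at 178, 338 and 469.6 in hypoxia and 374, 461 and 314 in normoxia in the triCH1 lines, against 252, 252 and 258 in hypoxia and 150.4, 219 and 302 in normoxia in the control lines. Its groups overlapped in hypoxia, with the lowest signal in triCH1flox1, and not in normoxia. It had the largest p among lines (adjusted p = 0.238). Cdk1 (1448314_at) itself averaged 5430.5 ± 1729 in hypoxic and 5861 ± 538 in normoxic triCH1 lines, against 4136 ± 234 in hypoxic and 4132 ± 497 in normoxic control lines (SD, n = 3 each), with a gap among lines of 0.76 (adjusted p = 0.0211). Ccnb2, cyclin B2, averaged 2644 ± 330.1 in hypoxic and 2502 ± 221 in normoxic triCH1 lines, against 1975 ± 263 in hypoxic and 1883 ± 382 in normoxic control lines, with a gap of 0.72 that was not called (adjusted p = 0.0747).

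**Figure D4:**
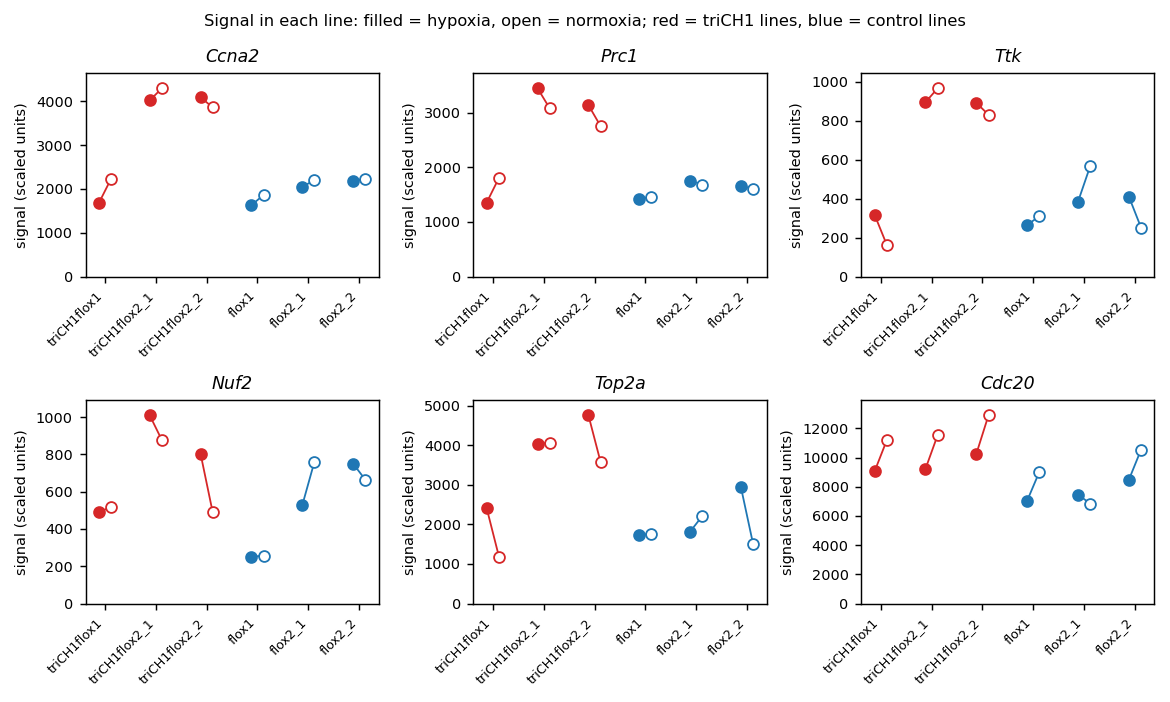
Signal of 6 members in each line, with hypoxia as filled and normoxia as open circles joined by a line, triCH1 lines in red and control lines in blue, on linear axes from 0. Ccna2, Prc1, Ttk and Top2a are highest in triCH1flox2_1 and triCH1flox2_2, Nuf2 is lowest in flox1, and Cdc20 has a lower signal in hypoxia in 5 of the 6 lines. Each panel shows the probe set used for that member.

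Of the mitotic kinases, Aurka, Nek2 and Melk were called among the lines and Plk1 was not. Nek2 (1437580_s_at), a centrosome kinase that separates the centrosomes at mitotic entry, gave 688, 946 and 817 in hypoxia and 531, 884 and 824 in normoxia in the triCH1 lines, against 589, 589 and 734 in hypoxia and 527, 384 and 407 in normoxia in the control lines. In normoxia each triCH1 line lay above each control line, by a small margin for triCH1flox1 over flox1. In hypoxia the groups overlapped, since flox2_2 lay above triCH1flox1. The triCH1 minus control difference in normoxia was 0.72 ± 0.22 (adjusted p = 0.402), and the gap among lines was 0.91 (adjusted p = 0.045). Aurka, the Aurora kinase of the centrosome and spindle poles, averaged 2312 ± 296 in hypoxic and 2465 ± 309 in normoxic triCH1 lines, against 1853 ± 332 in hypoxic and 1959.8 ± 402 in normoxic control lines. Flox2_1 was its lowest line, with a gap among lines of 0.84 (adjusted p = 0.0202). Plk1, the Polo-like kinase, averaged 1608 ± 149 in hypoxic and 2033 ± 552 in normoxic triCH1 lines, against 1312 ± 108 in hypoxic and 1352 ± 265 in normoxic control lines, with a gap of 0.81 (adjusted p = 0.087). Melk, a kinase with its peak in mitosis, averaged 852 ± 149.7 in hypoxic and 942 ± 274 in normoxic triCH1 lines, against 599.5 ± 106 in hypoxic and 568 ± 75.3 in normoxic control lines, with a gap of 1.03 (adjusted p = 0.00769).

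All 4 spindle checkpoint genes were called among the lines. Ttk (1449171_at) encodes MPS1, the kinase that starts checkpoint signalling at the kinetochore, and had the widest gap among the members. Its signal was 317, 894 and 891 in the hypoxic and 163, 966 and 830.1 in the normoxic triCH1 lines, against 264, 384 and 410.3 in the hypoxic and 310.1, 567 and 251 in the normoxic control lines. Both triCH1flox2 lines lay above the rest in both treatments, whereas normoxic triCH1flox1 had the lowest signal of the 12 arrays. The gap was 1.94, with an SE of 0.30 (adjusted p = 0.00124). Bub1 (1424046_at), the checkpoint kinase that phosphorylates histone H2A at centromeres, gave 1381, 1231 and 2018 in hypoxia and 843, 1051 and 1294 in normoxia in the triCH1 lines, against 844, 824 and 1577 in hypoxia and 542, 884 and 617 in normoxia in the control lines. The highest signals were those of hypoxic triCH1flox2_2 and flox2_2, and the groups overlapped in both treatments. The gap among lines was 1.23 (adjusted p = 0.0492). Bub1b, which encodes the checkpoint protein BUBR1, averaged 876 ± 234 in hypoxic and 1013 ± 237 in normoxic triCH1 lines, against 624 ± 105 in hypoxic and 656 ± 182 in normoxic control lines, with a gap of 1.04 (adjusted p = 0.00527). Mad2l1, which encodes MAD2, the protein that blocks CDC20, averaged 4062 ± 955 in hypoxic and 3776 ± 1094 in normoxic triCH1 lines, against 2802 ± 533 in hypoxic and 2789.6 ± 415 in normoxic control lines, with a gap of 0.96 (adjusted p = 0.00662).

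The chromosomal passenger complex was measured through its kinase Aurkb, survivin (Birc5) and the scaffold Incenp, and all 3 were called among the lines. Aurkb (1424128_x_at) gave 514, 827 and 793 in hypoxia and 423, 812 and 885 in normoxia in the triCH1 lines, against 341, 566 and 423 in hypoxia and 363, 366 and 372 in normoxia in the control lines. In normoxia the control lines were nearly equal and below each triCH1 line, and in hypoxia flox2_1 lay above triCH1flox1. The gap among lines was 1.21, with an SE of 0.21 (adjusted p = 0.00333). Birc5 (1424278_a_at) gave 3709, 4949 and 5745 in hypoxia and 4891, 5594 and 5270.5 in normoxia in the triCH1 lines, against 3533, 3374 and 3600.4 in hypoxia and 3556, 3537 and 4441 in normoxia in the control lines. Its triCH1 lines lay above the control lines in both treatments, by a small margin for triCH1flox1 in hypoxia. The triCH1 minus control difference was 0.43 ± 0.16 in hypoxia (adjusted p = 0.519) and 0.45 ± 0.16 in normoxia (adjusted p = 0.503). Incenp averaged 2893 ± 655 in hypoxic and 3401 ± 702 in normoxic triCH1 lines, against 2055 ± 314 in hypoxic and 2274 ± 70.2 in normoxic control lines. On this probe set, which ends in _x_at, the line types did not overlap in either treatment. Its gap among lines was 0.95 (adjusted p = 0.00652). The other Incenp probe sets past the filter did overlap. The brighter gave 475.9 in normoxic triCH1flox1, below the control lines at 545.1 to 568.2, but did not overlap in hypoxia. The dimmer overlapped in both treatments. It gave 95.2 in hypoxic and 98.7 in normoxic triCH1flox1, against 83.9 to 208.9 and 80.3 to 160.0 in the control lines.

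Of the 5 centromere and kinetochore genes, Cenpa, Ndc80 and Nuf2 were called among the lines and Cenpe and Cenpf were not. Nuf2 (1430811_a_at), a subunit of the NDC80 complex that binds microtubules, departed from the common pattern. It gave 490.4, 1009.7 and 804 in hypoxia and 517, 876 and 488 in normoxia in the triCH1 lines, against 251, 526 and 750.1 in hypoxia and 256, 761 and 664 in normoxia in the control lines. Flox1 stood apart at the bottom in both treatments, and flox2_1 and flox2_2 lay above triCH1flox1. The gap was 1.81, with an SE of 0.24 (adjusted p = 0.00248). Cenpa (1450842_a_at), the histone H3 variant of centromeres, gave 2903, 2557 and 3532 in hypoxia and 3166, 2849.6 and 3131 in normoxia in the triCH1 lines, against 2477, 2186 and 2259 in hypoxia and 2130.4, 1822 and 2545 in normoxia in the control lines. The groups did not overlap in either treatment, and in normoxia triCH1flox1 had the highest signal of all. In normoxia triCH1 minus control was 0.50 ± 0.16 (adjusted p = 0.448). Cenpe (1435005_at), a kinesin motor of the kinetochore, gave 553, 398 and 632 in hypoxia and 342, 588 and 635 in normoxia in the triCH1 lines, against 262, 262 and 459 in hypoxia and 328, 512 and 297 in normoxia in the control lines. The 2 cultures of flox2_1, flox2_2 and triCH1flox1 lay far apart and not in the same direction, and its gap of 1.06 was not called (adjusted p = 0.22). Ndc80 averaged 499 ± 269 in hypoxic and 410.4 ± 183 in normoxic triCH1 lines, against 248 ± 108 in hypoxic and 334 ± 72.9 in normoxic control lines, with a gap of 1.43 (adjusted p = 0.0297). Cenpf, a large protein of the outer kinetochore, averaged 446 ± 138 in hypoxic and 463 ± 190.1 in normoxic triCH1 lines, against 296 ± 93.2 in hypoxic and 396 ± 185 in normoxic control lines, with a gap of 0.99 (adjusted p = 0.103).

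Among the 6 motors and spindle proteins, Prc1, Kif11, Kif23 and Tpx2 were called among the lines. Prc1 (1423775_s_at), which bundles the microtubules of the central spindle, gave 1355, 3444 and 3137 in hypoxia and 1804, 3076 and 2751 in normoxia in the triCH1 lines, against 1427, 1755 and 1665 in hypoxia and 1448, 1684 and 1599 in normoxia in the control lines. On this probe set, both triCH1flox2 lines lay far above the rest in both treatments, and triCH1flox1 was the lowest array of all in hypoxia. The gap was 1.17, with an SE of 0.17 (adjusted p = 6.20e-04). On the other Prc1 probe set past the filter, both triCH1flox2 lines again lay above the rest, with a narrower margin for triCH1flox2_2. That line gave 1687.9 in normoxia, against 1483.7 in flox2_1, and 2089.3 in hypoxia, against 1757.9 in flox2_2. There flox1 was lowest in hypoxia, at 866.8, against 1430.7 in triCH1flox1. Kif2c (1437611_x_at), the kinesin MCAK that takes microtubules apart, gave 869, 1141 and 1274 in hypoxia and 1256, 1233 and 1402 in normoxia in the triCH1 lines, against 831, 996 and 932 in hypoxia and 896, 932 and 1186 in normoxia in the control lines. Its triCH1 lines lay above the control lines in normoxia, with triCH1flox1 below 2 of the control lines in hypoxia, and its gap of 0.62 was not called (adjusted p = 0.172). Kif11, the kinesin that pushes the spindle poles apart, averaged 612 ± 220.4 in hypoxic and 501 ± 260.5 in normoxic triCH1 lines, against 334 ± 120.5 in hypoxic and 290.5 ± 118 in normoxic control lines, with a gap of 1.47 (adjusted p = 0.0131). Tpx2, an activator of Aurora A on the spindle, averaged 2754 ± 597 in hypoxic and 2400.0 ± 343 in normoxic triCH1 lines, against 2103 ± 41.0 in hypoxic and 2028 ± 47.7 in normoxic control lines. Its gap of 0.52 was the narrowest of all members and was called (adjusted p = 0.0456). Kif23, a motor of the central spindle, averaged 1477 ± 128 in hypoxic and 1219 ± 276 in normoxic triCH1 lines, against 1040.4 ± 384 in hypoxic and 928 ± 109.9 in normoxic control lines, with a gap of 0.93 (adjusted p = 0.0241). Kif20a, another central spindle kinesin, averaged 1881 ± 329.8 in hypoxic and 1906 ± 68.2 in normoxic triCH1 lines, against 1389 ± 134 in hypoxic and 1406 ± 194 in normoxic control lines, and its gap of 0.63 lay just outside the threshold (adjusted p = 0.0516). Its triCH1 lines lay above the control lines in normoxia.

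The cytokinesis genes are Ect2, an activator of the GTPase RhoA, its partner Racgap1, and Anln, the anillin of the contractile ring. Ect2 was called among the lines, with a gap of 1.70 (adjusted p = 0.0148), and averaged 1323 ± 349.5 in hypoxic and 1092 ± 581 in normoxic triCH1 lines, against 827 ± 353 in hypoxic and 650.4 ± 242 in normoxic control lines. Racgap1 averaged 1617 ± 278 in hypoxic and 1685 ± 148 in normoxic triCH1 lines, against 1264 ± 209 in hypoxic and 1304 ± 139.9 in normoxic control lines, with a gap of 0.57 (adjusted p = 0.117). Anln averaged 5694 ± 594 in hypoxic and 4958 ± 1498 in normoxic triCH1 lines, against 4743 ± 564 in hypoxic and 4009.9 ± 619 in normoxic control lines, with a gap of 0.60 (adjusted p = 0.0744). Of the chromosome structure genes, Top2a, which encodes DNA topoisomerase IIα, averaged 3732 ± 1205 in hypoxic and 2943 ± 1540.0 in normoxic triCH1 lines, against 2160.0 ± 672 in hypoxic and 1824 ± 363 in normoxic control lines. Mki67, the proliferation marker Ki-67, averaged 2286 ± 716 in hypoxic and 1929 ± 1013 in normoxic triCH1 lines, against 1265 ± 254 in hypoxic and 1283 ± 572 in normoxic control lines. Both were called, with gaps of 1.28 (adjusted p = 0.00704) and 1.32 (adjusted p = 0.0139), and triCH1flox1 was the lowest line for both.

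The anaphase ubiquitin pathway comprised Cdc20, Ube2c and Espl1. Cdc20 (1439377_x_at), the APC/C activator of metaphase, was the brightest member, at 9059, 9221 and 10250.3 in hypoxia and 11193, 11544 and 12901 in normoxia in the triCH1 lines, against 7046, 7459 and 8479 in hypoxia and 9022, 6850.0 and 10543 in normoxia in the control lines. Each triCH1 line lay above each control line in both treatments, and 5 of the 6 lines had a lower signal in hypoxia, the exception being flox2_1. Its gap among lines was 0.68 (adjusted p = 0.0164). Ube2c (1452954_at), the ubiquitin-conjugating enzyme that works with the APC/C, gave 5882, 6448 and 7366 in hypoxia and 6295, 6864 and 7149.8 in normoxia in the triCH1 lines, against 5406, 4804 and 4397 in hypoxia and 5646, 4628 and 5854 in normoxia in the control lines. The line types did not overlap in either treatment. Between triCH1 and control lines the difference was 0.43 ± 0.14 in hypoxia, the smallest p of the members there (adjusted p = 0.441), and 0.34 ± 0.14 in normoxia. Espl1 (1433862_at), separase, the protease that cuts cohesin, gave 311, 364 and 313 in hypoxia and 370.5, 509 and 557 in normoxia in the triCH1 lines, against 357, 264 and 224 in hypoxia and 279, 199.8 and 271 in normoxia in the control lines. In normoxia the triCH1 lines lay clear of the control lines, and in hypoxia the groups overlapped. The triCH1 minus control difference was 0.88 ± 0.23 in normoxia, the smallest p of the members there (adjusted p = 0.298), and 0.23 ± 0.23 in hypoxia (adjusted p = 0.811). Probe sets of 7 members, of which 5 (Aurkb, Cdc20, Cdc25c, Incenp and Kif2c) end in _x_at and 2 (Nek2 and Prc1) in _s_at, can also match other transcripts, so their levels are less certain.

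The response to 6 h at 0.1% O2 was examined next, to see whether hypoxia lowered or raised mitotic transcripts and whether the CH1 deletion altered this. No member was called by limma in any of the 4 tests, and at an unadjusted p under 0.05 there were 1 in the triCH1 lines, against 6.25% of all probe sets, 2 in the control lines, against 5.98%, 3 for the mean response, against 11.3%, and 0 for the difference between the responses, against 0.693%. In the triCH1 lines 0 of 35 were called, against 0.63% of all probe sets higher and 0.00529% lower, with a median change of −0.01 over the members and −0.02 over all probe sets. In the control lines 0 of 35 were called, against 0.799% higher and 0.0317% lower, with medians of 0.01 and −0.04. Averaged over both line types 0 of 35 were called, against 1.42% higher and 0.328% lower, with medians of −0.02 and −0.03. For the difference between the responses 0 of 35 were called, against 0% higher and 0% lower. The 95% interval of the change lay within 1 log2 unit either way for 27 members in the triCH1 lines, 27 in the control lines and 35 for the mean response, and for 22 for the difference between the responses. The response had the same sign in all 6 lines for 0 members, against 5.14% of all probe sets higher and 7.23% lower in all 6.

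The members with the smallest p are given by their responses, with the signals as listed above. The Bub1 response was 0.52 ± 0.28 in the triCH1 lines (limma adjusted p = 0.857), 0.62 ± 0.28 in the control lines (adjusted p = 0.818) and 0.57 ± 0.20 on average (adjusted p = 0.241). Its signal was higher in hypoxia in 5 of the 6 lines, and flox2_1 was the exception. The Nek2 response was 0.15 ± 0.22 in the triCH1 lines and 0.52 ± 0.22 in the control lines (adjusted p = 0.735). In the control lines its 3 hypoxic arrays lay above the 3 normoxic ones, which held for 1 member, against 4.66% of all probe sets. The average for Nek2 was 0.34 ± 0.15 (adjusted p = 0.436), but −0.001 when all its probe sets were averaged. Its other probe set past the filter had a lower signal in hypoxia in all 6 lines, so the rise holds only for the probe set used. The Cdc20 response was −0.32 ± 0.15 in the triCH1 lines (adjusted p = 0.794), −0.18 ± 0.15 in the control lines and −0.25 ± 0.11 on average (adjusted p = 0.377). On the other Cdc20 probe sets past the filter, the hypoxic and normoxic triCH1 arrays overlapped. On the probe set used, the hypoxic triCH1 arrays all lay below the normoxic ones. That held for 2 members, Cdc20 and Espl1, against 6.21% of all probe sets. The Espl1 response was −0.50 ± 0.23 in the triCH1 lines (adjusted p = 0.791), again without overlap, and 0.15 ± 0.23 in the control lines, where the lines did not share a direction. The difference between these responses was −0.65 ± 0.32, the smallest p of the members for that test (unadjusted p = 0.0646, adjusted p = 1), followed by Nek2 (−0.37 ± 0.31) and Cdc25c (−0.51 ± 0.44).

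Behind the medians near 0, single lines moved in different ways. Counting responses past 0.5 log2 units, triCH1flox1 had 9 members higher and 3 lower in hypoxia, triCH1flox2_1 0 and 1, triCH1flox2_2 4 and 2, flox1 2 and 1, flox2_1 2 and 7, and flox2_2 10 and 0. Over all probe sets the share past that size was 15.8% higher and 10.9% lower in triCH1flox1, and 17.3% and 14.6% in flox2_2. In triCH1flox2_1 the shares were 8.18% higher and 6.97% lower, in triCH1flox2_2 6.74% and 11.3%, in flox1 7.25% and 8.9%, and in flox2_1 6.81% and 15.8%. The 2 members higher in flox2_1, Nek2 and Aurkb, were lower in hypoxia in that line on their other probe set past the filter. Top2a was 1.01 higher in hypoxia in triCH1flox1 and 0.96 in flox2_2, against a difference of −0.28 in flox2_1. Ect2 differed by 1.03 in triCH1flox1, 1.10 in flox2_2 and −0.38 in flox2_1, and Kif11 by 0.81, 1.06 and −0.59. Mki67 differed by 0.92 in triCH1flox1, 0.93 in flox2_2 and −0.74 in flox2_1. Ttk differed by 0.88, 0.67 and −0.54 in the same lines. Each of these rests on 1 array per treatment and has no test. The 3′ to 5′ ratio of Tfrc was lower in hypoxia in flox2_2 (1.88 in hypoxia, 2.75 in normoxia) and higher in flox2_1 (3.20 in hypoxia, 2.47 in normoxia), while triCH1flox1 had 2.38 in hypoxia and 2.09 in normoxia. Its part in the result was not tested.

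Across the arrays, the profiles of the members were alike. Pearson's r between 2 members had a median of 0.66 over 595 pairs, from −0.03 to 0.98, and the r of a member with the mean profile of the others lay between 0.58 for Nuf2 and 0.94 for Ccna2. These correlations describe 12 arrays from 6 lines, which share line and scaling, so they are not over independent samples. Among 10024 other genes, the 10 most like the mean standardised profile of the members were Mcm3 (r = 0.99), Rfc4, Ercc6l, Tmpo, Pole2 and Spc24 (0.97 each), and Gins1, Shmt1, Lig1 and Hat1 (0.96 each). The median r was 0.90 for 41 DNA replication genes, 0.82 for 60 other mitotic genes and 0.06 over all 10024 genes.

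Other cell cycle genes were read from lists chosen, like the members, with results of these arrays known. Over all probe sets, 15.8% were called among the lines. Of all 18903 probe sets, 10491 had a triCH1 minus control difference above 0 in hypoxia and 9942 in normoxia. Of 60 other mitotic genes, 33 were called among the lines, with a median gap of 0.98 log2 units, and those with the smallest p were Fbxo5, an inhibitor of the APC/C, Depdc1a and Kif22, a chromosome arm kinesin. Their triCH1 minus control differences were above 0 for 57 in hypoxia (median 0.46) and 56 in normoxia (median 0.45), with 0 called. Of 41 DNA replication genes, 32 were called among the lines, with a median gap of 1.14, led by the licensing factor Cdt1, the helicase subunit Mcm5 and the loading factor Cdc6. Their differences were above 0 for 40 in hypoxia (median 0.61) and 41 in normoxia (median 0.65), again with 0 called. Their median level was −0.11 in triCH1flox1, 0.60 in triCH1flox2_1 and 0.51 in triCH1flox2_2, against −0.41 in flox1, −0.34 in flox2_1 and −0.17 in flox2_2. The S phase genes thus had the same order of line types as the mitotic ones. Of the 14 core APC/C subunits 1 (Anapc1) was called among the lines, and their differences had medians of 0.10 in hypoxia and 0.05 in normoxia.

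Of 21 regulators of G2 and mitotic transcription, 6 were called among the lines (Mybl2, Lin54, E2f7, E2f8, Tfdp1 and Rbl1). The share called over all probe sets was 15.8%. Mybl2, which encodes B-MYB, the activator that joins the MuvB core, had a log2 level relative to its mean over lines of 0.01 in triCH1flox1, 0.28 in triCH1flox2_1 and 1.19 in triCH1flox2_2, against −0.59 in flox1, −0.52 in flox2_1 and −0.37 in flox2_2. Of 16 G1 cyclins, CDKs and CDK inhibitors, 10 were called, and the inhibitors among them ran both ways. Cdkn2a, the p16 and p19ARF locus, had levels of −0.14, −0.57 and −0.95 in triCH1flox1, triCH1flox2_1 and triCH1flox2_2, against 1.15, 0.13 and 0.38 in flox1, flox2_1 and flox2_2 (limma F test, adjusted p = 5.89e-05). Cdkn2b, which encodes p15, had 0.26, −0.80 and −0.93 in the triCH1 lines, against 1.02, −0.09 and 0.54 in the control lines. Cdkn1a, which encodes p21, had 0.16, −0.63 and −0.55 in the triCH1 lines, against 0.71, −0.03 and 0.34 in the control lines. Cdkn1c, which encodes p57, had 0.11, −0.94 and −1.04 in the triCH1 lines, against −0.10, 1.82 and 0.16 in the control lines. Those 4 inhibitors had their lowest levels in triCH1flox2_1 and triCH1flox2_2. Cdkn2c, which encodes p18, went the other way, with −0.21, 0.51 and 0.45 in the triCH1 lines, against −0.25, −0.24 and −0.26 in the control lines (adjusted p = 0.00896), and had r = 0.94 with the mean member profile. Cdkn1b, which encodes p27, had 0.07, 0.59 and 0.41 in the triCH1 lines, against −1.22, −0.33 and 0.48 in the control lines. In hypoxia 0 genes of these 5 lists were called in the triCH1 or the control lines.

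**Figure D5:**
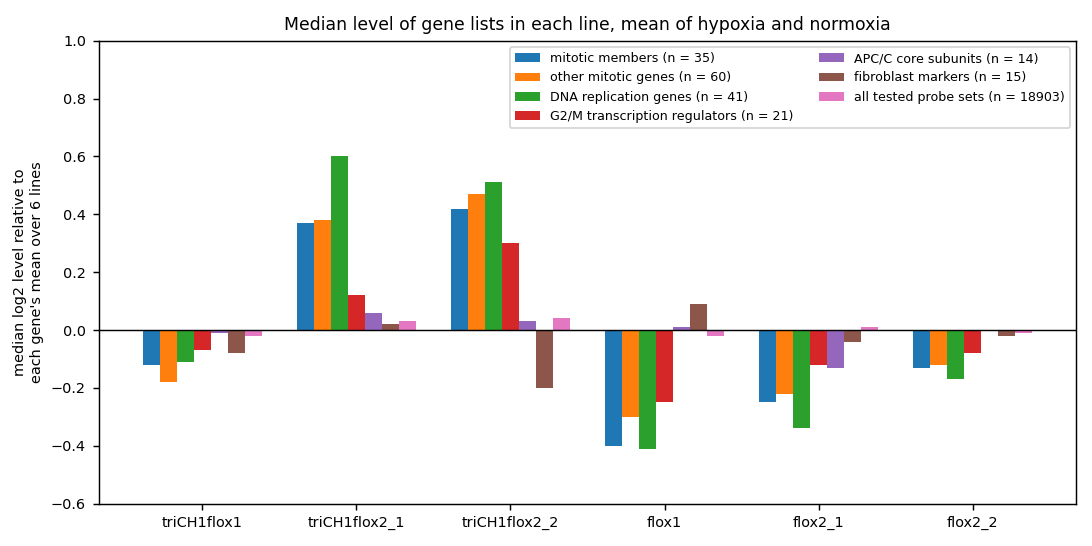
Median log2 level of 7 gene sets in each line, relative to each gene's mean over the 6 lines and averaged over hypoxia and normoxia, with triCH1 lines at the left. The bars of the mitotic members, other mitotic genes and DNA replication genes lie between 0.37 and 0.60 in triCH1flox2_1 and triCH1flox2_2 and below 0 in the other lines, while those of APC/C subunits, fibroblast markers and all probe sets lie between −0.20 and 0.09.

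Markers of other cell types also differed among the lines, in a test that called 15.8% of all probe sets. Of the 15 fibroblast markers, 7 were called, among them Lum, Thy1 and Pdgfra, and the sums of the list overlapped between all 4 groups. Skeletal muscle markers had 1 of 2 called (Des), epithelial markers 1 of 2 (Krt18) and neural markers 3 of 4 (Map2, Sox2 and Tubb3). The summed signal of the neural markers was 2139 to 2720 in the hypoxic and 2264 to 2792 in the normoxic triCH1 lines, against 1885 to 3225 in the hypoxic and 2142 to 3347 in the normoxic control lines. That of the epithelial markers was 247.4 to 700.6 in the hypoxic and 455.7 to 1034 in the normoxic triCH1 lines, against 422.1 to 450.2 in the hypoxic and 460.6 to 579.7 in the normoxic control lines. For the muscle markers it was 332.1 to 624.5 and 220.7 to 695.8 in the triCH1 lines, against 421.7 to 689.7 and 479.8 to 729.9 in the control lines. Some markers were, like most mitotic members, highest in triCH1flox2_1 and triCH1flox2_2, though their order over the other lines differed. Krt18, an epithelial keratin, had a log2 level relative to its mean over lines of −0.67, 0.90 and 0.94 in the triCH1 lines, against −0.53, −0.19 and −0.46 in the control lines. Pdgfra, a receptor of mesenchymal cells, had −0.75, 1.75 and 0.93 in the triCH1 lines, against −1.51, −0.36 and −0.06 in the control lines. The matrix genes Lum and Dcn were likewise highest in triCH1flox2_1 (2.93 and 2.15) and triCH1flox2_2 (0.66 and 0.75), whereas Thy1 was lowest there (−0.77 and −0.73). Other markers did not share the pattern of Krt18. The epithelial marker Epcam had −0.19 in triCH1flox2_1 and 0.28 in flox2_2. Pdgfrb had −0.29 in triCH1flox2_1 and −0.32 in triCH1flox2_2. The median over the 15 fibroblast markers was 0.02 in triCH1flox2_1 and −0.20 in triCH1flox2_2. The part of these differences in the mitotic levels was not tested.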

How the data were processed

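RNA of 12 fibroblast cultures was measured on 1-colour Affymetrix Mouse430_2 arrays, 1 per culture. The deposited values are probe set intensities that the authors computed on a linear scale by the Affymetrix algorithm named Statistical, with each array scaled to a target of 500, per the labels. The software version is not given in the sources used here, and no detection calls were used. Of 45101 probe sets, 64 controls were left out; 34945 had 1 gene symbol, 932 several and 9160 none, and genes were named from those with 1. Ccnb1 had no probe set assigned to it alone and was not analysed here.

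The 18903 probe sets whose mean signal reached 100 were tested as log2(signal + 20), a scale on which a fold change understates that of dim genes, using limma 3.58.1 in R 4.3.3 (lmFit, then eBayes with trended prior variance), on all 12 arrays with 1 mean per group. The F test among lines used treatment and line. Tests were two-sided, with Benjamini-Hochberg adjustment over all probe sets, and were tested on simulated data first. Errors are SE for log2 changes and SD for signals. The labels do not say whether the lines come from separate embryos, so p-values measure the spread between these cultures. Replicates are numbered in accession order.

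Hypoxic and normoxic arrays of a line come from the same cells and are paired by line name; after removal of group means their correlation was 0.58, 0.54, 0.47, 0.35, 0.28 and −0.02. No pair of arrays was identical, and Pearson's r between arrays was 0.93 to 0.976. The members, the lists and the naming rule were chosen with earlier results of these data known. All members are accounted for by role; signals in every array are given for the 3 members with the smallest p of each contrast, as none called 3 or more, and for the 5 with the smallest and 3 with the largest p among lines. The settings varied were the pseudocount (1 or 100), the signal filter (none or 200), the normalization (quantile or median centring), the variance trend (none), a replicate block for line, the mean of a gene's probe sets in place of 1, and omission of each array or line.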

Additional observations from a re-analysis of the deposited data

How the results depend on the processing

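The triCH1 minus control difference was above 0 for at least 34 of 35 members in hypoxia and 33 in normoxia under every one of 28 settings, with medians of 0.36 to 0.60 and 0.39 to 0.66. Members called ranged from 0 to 4 in hypoxia and from 0 to 6 in normoxia when 1 line or array was left out, with 4 and 6 without triCH1flox1, where 276 and 245 of all probe sets were called. The replicate block for line, which pairs the 2 cultures of each line, left 0 members called in all 6 contrasts. Of 25 members called among the lines, 8 remained without the variance trend and 8 when differences between line types were left out. The count ranged from 8 to 29 with 1 line left out: 8 without triCH1flox2_2, 13 without triCH1flox2_1 and 15 without flox1. Bub1b, Ccna2, Prc1 and Ttk were called under every setting of that test.

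The median hypoxia response had no stable sign. With 1 line or array left out it ranged from −0.189 to 0.178 in the triCH1 lines, from −0.039 to 0.062 in the control lines, from −0.235 to 0.129 for their difference and from −0.098 to 0.105 for the mean. Centring on the array median gave 0.047 in the control lines. The mean response of Nek2 changed sign, to −0.001 (limma adjusted p = 0.999), when all its probe sets were averaged. The probe set used above was higher in hypoxia in 5 of the 6 lines, and its other probe set past the filter was lower in all 6. That other probe set gave 247.9, 195.4 and 257.7 in hypoxia and 326.0, 298.8 and 318.2 in normoxia in the triCH1 lines. In the control lines it gave 143.1, 229.2 and 196.9 in hypoxia and 216.0, 238.6 and 232.4 in normoxia. Why the probe sets differ was not tested. Over named members and counts at an unadjusted p, 868 alternative values were rated the same, 135 weaker, 19 stronger and 1 reversed. For a member, the same means an unchanged direction and side of the threshold. For a count, it means a similar size. Over counts of calls and medians, 309 were rated the same, 5 weaker and 2 stronger, and 23 medians moved by at least the SD between lines or arrays. With 3 arrays per group, the 95% interval of the difference between responses lay within 1 log2 unit for 22 of 35 members.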
